A study of Mus musculus with 5 samples.

Results

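Voltage-gated calcium, sodium and potassium channel genes were taken from the expression tables by symbol: every Kcn gene, the Cacna, Cacnb and Cacng genes, the numbered Scn genes with an a or b, Abcc8 and Dpp10. The rule found 140 genes among 36529 gene rows, and 128 of them had at least 1 UMI (unique molecular identifier, 1 for each captured transcript) in a kept cell. They comprised 40 pore subunits of voltage-gated potassium (Kv) channels and 13 Kv auxiliary genes, 14 two-pore potassium channels, 13 inward rectifiers, 12 genes of channels opened by calcium or sodium, and 3 KATP genes. The calcium side held 10 pore and 16 auxiliary genes, the sodium side 10 pore and 4 beta subunit genes, and 5 members were noncoding or regulators.

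Single-cell libraries were made with a 10X 3' kit from pancreatic islets and tumors of mice, with no treatment. 1 islet library came from a GCGR heterozygote, which keeps 1 working copy of the glucagon receptor gene, and 1 from a GCGR homozygous knockout. The 3 tumor libraries were also from GCGR homozygous knockouts. They are called A, B and C here, since nothing ties them to the numbered tumor samples. The labels used here give no age, strain, sex or number of animals.

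Islet endocrine cells are electrically excitable. In the beta cell, which makes insulin, ATP closes KATP channels, the membrane depolarises, voltage-gated calcium channels open and secretion follows. Alpha cells (glucagon) and delta cells (somatostatin) use the same channel classes, with sodium channels carrying more of their action potentials, and Kv, two-pore and calcium-activated potassium channels bring the voltage back.

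After removal of doublets the libraries held 1326 heterozygous and 2843 homozygous islet cells and 495, 846 and 1084 tumor cells, with between 10086827 and 34091060 UMIs. The tables name cells by identifiers and not by barcodes, so barcodes shared between libraries were not counted. Cell types are the authors' classifications: 306 heterozygous and 1525 homozygous alpha cells, 686 and 461 beta cells, and 62 and 332 delta cells. All 8 alpha markers had UMIs in both alpha pools and in every tumor library, and all 4 delta markers in both delta pools. Such presence did not tell types apart, since all 8 alpha markers also had UMIs in the beta and delta pools. Alpha markers summed to 390395 CPM (heterozygous) and 390922 CPM (homozygous) in alpha pools, against 7542 and 25459 CPM in beta pools. In delta pools they summed to 9695 and 25449 CPM, and in tumors A, B and C to 419996, 401518 and 406182 CPM. Delta markers summed to 154301 and 218473 CPM in delta pools, and to 4569 CPM or less in alpha and beta pools. Of the 8 beta markers, Mafa alone was at 0 in homozygous beta cells. Transcripts of other endocrine cells were present in every pool: Ins2 stood at 38150 CPM in heterozygous and 6605 CPM in homozygous alpha cells, and at 0.198, 2.04 and 2604 CPM in tumors A, B and C. CPM are UMIs per 1000000 UMIs pooled over the cells of a type and library. Gcgr was at 2.49 CPM in heterozygous alpha cells and at 0 in homozygous ones, and at 0, 0.0443 and 0.138 CPM in the tumors. Xist was at 1465 and 1730 CPM in tumors A and B and at 0.276 CPM in tumor C. In heterozygous and homozygous alpha cells it was at 1.24 and 0.135 CPM. Tumors A and B thus differed in Xist from both alpha pools they are compared with below, and the part of this difference was not tested.

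Summed over all members, channel transcripts made up 1190 CPM in heterozygous and 898 CPM in homozygous alpha cells. The sum was 671 CPM in beta cells of both genotypes, and 1808 and 1216 CPM in heterozygous and homozygous delta cells. Tumors A, B and C had 1407, 1308 and 967 CPM. Hormone transcripts take up a large and differing part of each pool, so the calls were also made on totals without 8 hormone transcripts, and a named gene's call that ended there is said to have ended.

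**Figure D1:**
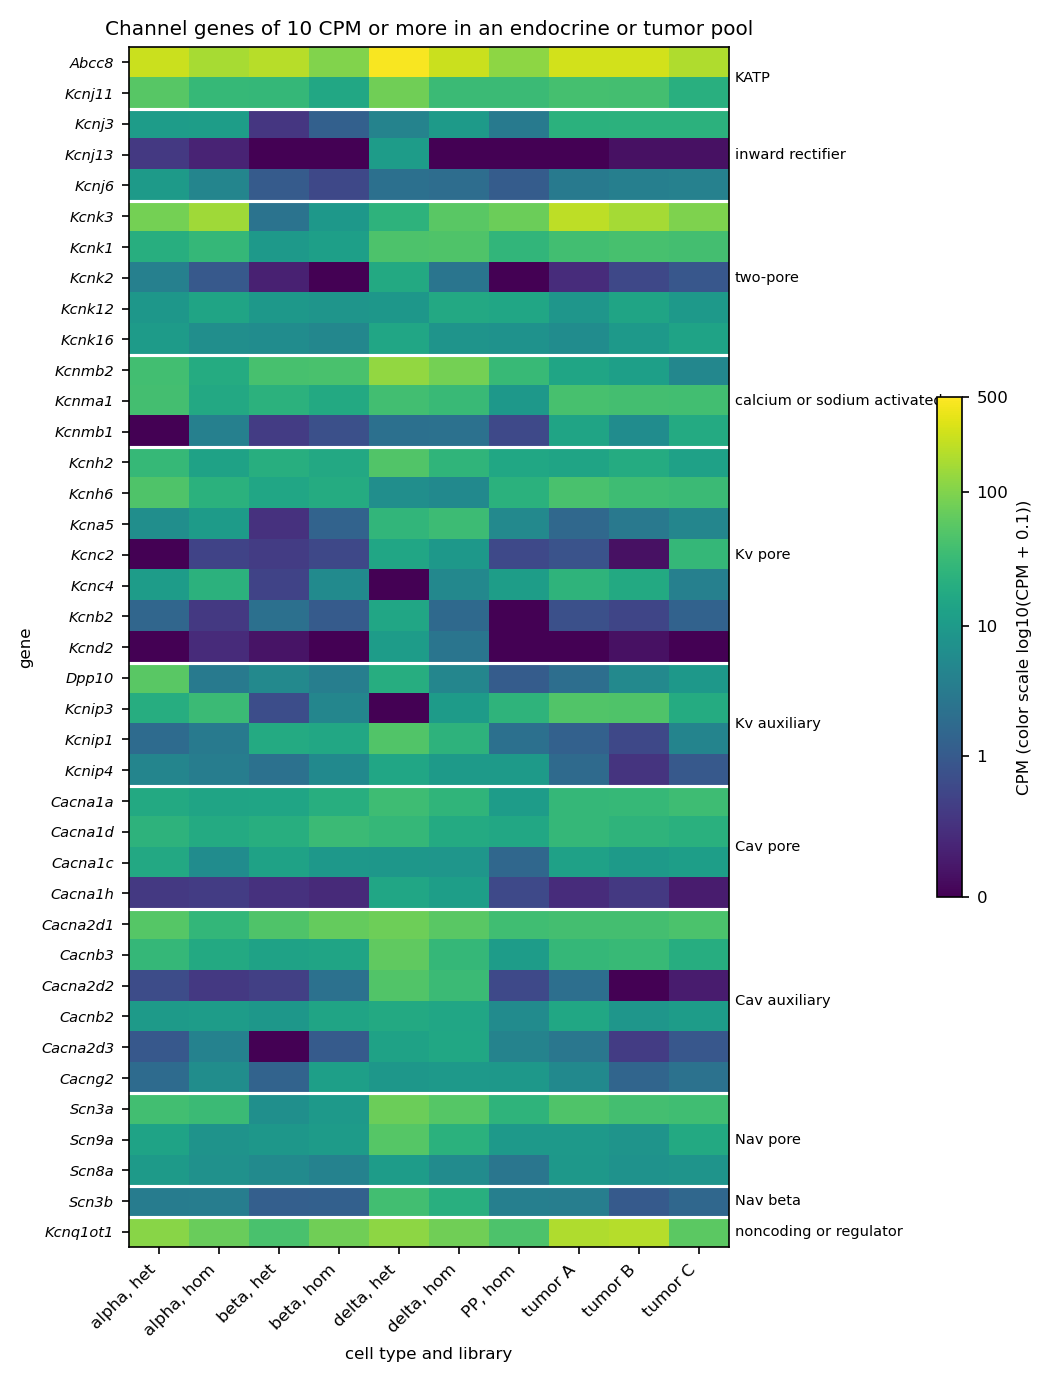
Levels of 39 channel genes that reached 10 CPM in an endocrine or tumor pool (rows, by family) in each endocrine cell type and each tumor library (columns), colored by log10(CPM + 0.1). Abcc8 was between 98.1 and 461 CPM in these endocrine and tumor pools, whereas Cacna2d2 was at 49.0 and 33.0 CPM in delta cells and at 2.31 CPM or less in the other columns.

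The first comparison asked which channel genes set alpha, beta and delta cells apart within the islet. A gene was called when it reached 10 CPM in 1 of the 2 types and the exact 95% interval of the ratio lay beyond 1.5-fold, the same way in both islet libraries. These intervals cover counting error only, and with 1 library a genotype no test was made. Between alpha and beta cells 6 of 22 members were higher in alpha cells, against 17.2% of all genes, and 1 was higher in beta cells, against 2.16%. Between alpha and delta cells 3 of 28 members were higher in alpha cells (1.16% of all genes) and 8 in delta cells (5.18%). Between beta and delta cells none of 25 was higher in beta cells (0.603%) and 12 were higher in delta cells (18.8%). Without the hormone transcripts, whose removal raised every CPM and brought more genes to 10 CPM, 7 of 35 members were higher in alpha than in beta cells (3.68% of all genes) and 4 were lower (6.79%). Between alpha and delta cells 3 of 39 were then higher in alpha cells (1.5%) and 9 in delta cells (3.65%). Between beta and delta cells 1 of 39 was then higher in beta cells (2.03%) and 9 in delta cells (2.94%).

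Kcnk3 encodes TASK-1, a two-pore channel that carries an acid-sensitive background potassium current. Its transcripts marked alpha cells in both genotypes. It had 268 UMIs in heterozygous alpha cells (83.3 CPM) and 3261 in homozygous ones (147 CPM), against 2.43 and 9.44 CPM in beta cells and 24.5 and 55.9 CPM in delta cells. The alpha level was thus 34.3-fold (95% interval 24.7 to 48.7) and 15.6-fold (11.9 to 20.9) above that of beta cells. Over delta cells it was 3.40-fold (1.87 to 6.89) and 2.63-fold (2.28 to 3.06). Endothelial cells had 10.5 and 8.83 CPM, above beta cells in the heterozygous library and slightly below them in the homozygous one. Pancreatic polypeptide (PP) cells of the homozygous islets had 74.2 CPM.

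Kcnj3 encodes GIRK1, an inward rectifier opened by G protein beta-gamma subunits. It was at 10.9 and 11.3 CPM in alpha cells and at 0.289 and 1.25 CPM in beta cells of heterozygous and homozygous islets, a 37.6-fold (14.7 to 123) and 9.05-fold (4.33 to 22.7) difference. Kcnc4, which encodes the fast-closing Kv3.4, was at 10.9 and 23.6 CPM in alpha cells and at 0.463 and 5.88 CPM in beta cells. Kcnip3, whose protein is a calcium sensor that binds Kv4 channels, was at 20.2 and 32.8 CPM in alpha cells against 0.637 and 4.81 CPM in beta cells. It had no UMI in heterozygous delta cells, which allows up to 6.69 CPM, and 10.7 CPM in homozygous ones. The beta-leaning member was its relative Kcnip1, at 18.4 and 16.2 CPM in beta cells and 1.87 and 3.29 CPM in alpha cells, and it was higher still in delta cells, at 49.0 and 24.6 CPM.

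Kcnj3 and Kcnc4, of the alpha-leaning genes, and Cacna2d2 and Kcna5, of the delta-leaning ones, each have 1 upstream window of 250 bases in RefSeq (GRCm38.p6), and these are shown because the members of each pair were high in the same cell type. The windows of Kcnj3 and Kcnc4 lie inside the RefSeq bounds of their genes (chr2:55411798-55598145 and chr3:107438298-107460287). That of Cacna2d2 runs past its gene's outer start at chr9:107399733, so these 3 do not lie wholly before the outer gene start. Capitals mark the GC box GGGCGG or its reverse CCGCCC.
Kcnj3, chr2:55435720-55435969, plus strand: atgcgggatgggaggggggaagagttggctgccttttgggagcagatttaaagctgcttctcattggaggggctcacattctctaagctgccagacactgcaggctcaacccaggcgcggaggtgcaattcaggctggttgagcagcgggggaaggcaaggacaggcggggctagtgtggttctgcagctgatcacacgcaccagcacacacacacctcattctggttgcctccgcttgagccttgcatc
Kcnc4, chr3:107458899-107459148, minus strand: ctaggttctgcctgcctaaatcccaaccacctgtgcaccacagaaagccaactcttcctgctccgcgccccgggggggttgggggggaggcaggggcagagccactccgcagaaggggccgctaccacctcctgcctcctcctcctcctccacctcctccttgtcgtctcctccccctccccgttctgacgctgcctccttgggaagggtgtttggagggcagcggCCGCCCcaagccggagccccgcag
Cacna2d2, chr9:107399630-107399879, plus strand: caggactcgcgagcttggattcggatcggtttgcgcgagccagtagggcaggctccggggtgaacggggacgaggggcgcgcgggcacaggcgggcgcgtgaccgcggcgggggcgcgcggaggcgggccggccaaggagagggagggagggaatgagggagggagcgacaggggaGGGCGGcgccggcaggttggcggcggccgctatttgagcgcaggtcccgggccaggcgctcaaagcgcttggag
Kcna5, chr6:126535556-126535805, minus strand: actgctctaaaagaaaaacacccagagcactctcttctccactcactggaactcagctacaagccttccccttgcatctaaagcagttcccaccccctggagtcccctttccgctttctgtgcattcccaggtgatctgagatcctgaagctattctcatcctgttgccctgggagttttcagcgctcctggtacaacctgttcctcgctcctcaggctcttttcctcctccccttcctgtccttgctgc
GC content was 58.4% for Kcnj3, 68.0% for Kcnc4, 74.4% for Cacna2d2 and 53.2% for Kcna5. Kcnc4 and Cacna2d2 each held 1 GC box, and the other two held none. Both strands were searched, and a GC box stood in 42.45% of 139 windows of 103 members and in 32.74% of the 32851 windows of all genes. The cAMP response element TGACGTCA stood in 1.546% of all windows and in none of the members', and the RE1 element's left part TTCAGCACC in 0.3014% of all windows and in 1 of the members', that of Kcnh6.

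Delta cells carried their own calcium and sodium channel subunits. Cacna2d2, an alpha2delta subunit that brings calcium channels to the membrane, had 22 UMIs in 62 heterozygous delta cells (49.0 CPM) and 114 in homozygous ones (33.0 CPM). Alpha cells had 0.622 and 0.316 CPM and beta cells 0.405 and 2.31 CPM, so delta cells lay 78.9-fold (19.4 to 692) and 105-fold (49.1 to 266) above alpha cells. Cacna1h, the pore of the low-voltage activated channel Cav3.2, was at 15.6 and 11.6 CPM in delta cells and at 0.361 CPM or less in alpha and beta cells. Cacna2d3 was at 13.4 and 15.9 CPM in delta cells, at 0.933 and 4.33 CPM in alpha cells, and at 0 and 1.07 CPM in beta cells. Delta cells lay above alpha and beta cells in both libraries for these 3 genes. That largely follows from naming genes by their calls, so it is no separate support.

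Among the sodium channels, Scn3a (Nav1.3) was at 38.2 and 33.6 CPM in alpha cells, 73.6 and 52.4 CPM in delta cells and 6.95 and 9.79 CPM in beta cells, so both alpha and delta cells lay above beta cells in each library. Scn9a (Nav1.7) followed another order: 53.5 and 23.2 CPM in delta cells, 13.7 and 7.90 CPM in alpha cells, and 8.97 and 10.5 CPM in beta cells. Alpha and beta cells overlapped for Scn9a, and its call between beta and delta cells ended without the hormone transcripts. Scn3b, a beta subunit that shapes sodium channel gating, was at 37.9 and 21.1 CPM in delta cells and at 3.66 CPM or less in alpha and beta cells. Scn8a was at 10.3 and 7.27 CPM in alpha cells, 5.81 and 4.28 CPM in beta cells and 11.1 and 6.08 CPM in delta cells, with no call. Scn3a, Scn2a1 and Scn9a lie on chromosome 2 (chr2:65457118-65567591, chr2:65620764-65767447 and chr2:66480080-66635114, GRCm38), and Scn2a1 stayed at 6.69 CPM or less in these 6 pools.

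Of the potassium channels, Kcna5 (Kv1.5) was at 26.8 and 34.2 CPM in delta cells, 6.53 and 10.5 CPM in alpha cells and 0.232 and 1.42 CPM in beta cells. The 3 types did not overlap, which again largely follows from naming it by its calls. Kcnmb2, a beta subunit that inactivates the BK channel, was at 125 and 84.3 CPM in delta cells, 37.6 and 19.0 CPM in alpha cells and 41.7 and 43.8 CPM in beta cells. Its difference between beta and delta cells did not pass without the hormone transcripts. Kcnh6, a member of the ether-a-go-go related family, leaned the other way: 48.5 and 22.9 CPM in alpha cells against 6.69 and 5.50 CPM in delta cells and 15.4 and 19.0 CPM in beta cells. Kcnh2 (hERG) was at 30.2 and 13.6 CPM in alpha cells, 21.0 and 17.1 CPM in beta cells and 49.0 and 26.4 CPM in delta cells, with no call. The two-pore channel Kcnk1 (TWIK-1) was at 20.5 and 28.9 CPM in alpha cells, 9.67 and 12.3 CPM in beta cells and 46.8 and 48.1 CPM in delta cells, and its calls also ended without the hormone transcripts.

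The KATP channel is built from the pore Kir6.2, the product of Kcnj11, and the sulphonylurea receptor SUR1, the product of Abcc8, which are neighbouring genes (chr7:46097123-46100952 and chr7:46104523-46180039, GRCm38). Abcc8 was at 252 and 164 CPM in alpha cells, 197 and 98.1 CPM in beta cells and 461 and 252 CPM in delta cells. Kcnj11 was at 55.0 and 30.2 CPM in alpha cells, 28.6 and 16.6 CPM in beta cells and 78.0 and 33.6 CPM in delta cells. Both were called higher in delta than in beta cells, by 2.34-fold and 2.57-fold for Abcc8 and by 2.73-fold and 2.03-fold for Kcnj11, and neither call held without the hormone transcripts. Kcnj8, the pore of the vascular KATP channel, was at 0.642 CPM or less in alpha, beta and delta cells and at 29.3 and 17.7 CPM in endothelial cells. Its count of 0 in heterozygous delta cells allows up to 6.69 CPM.

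**Figure D2:**
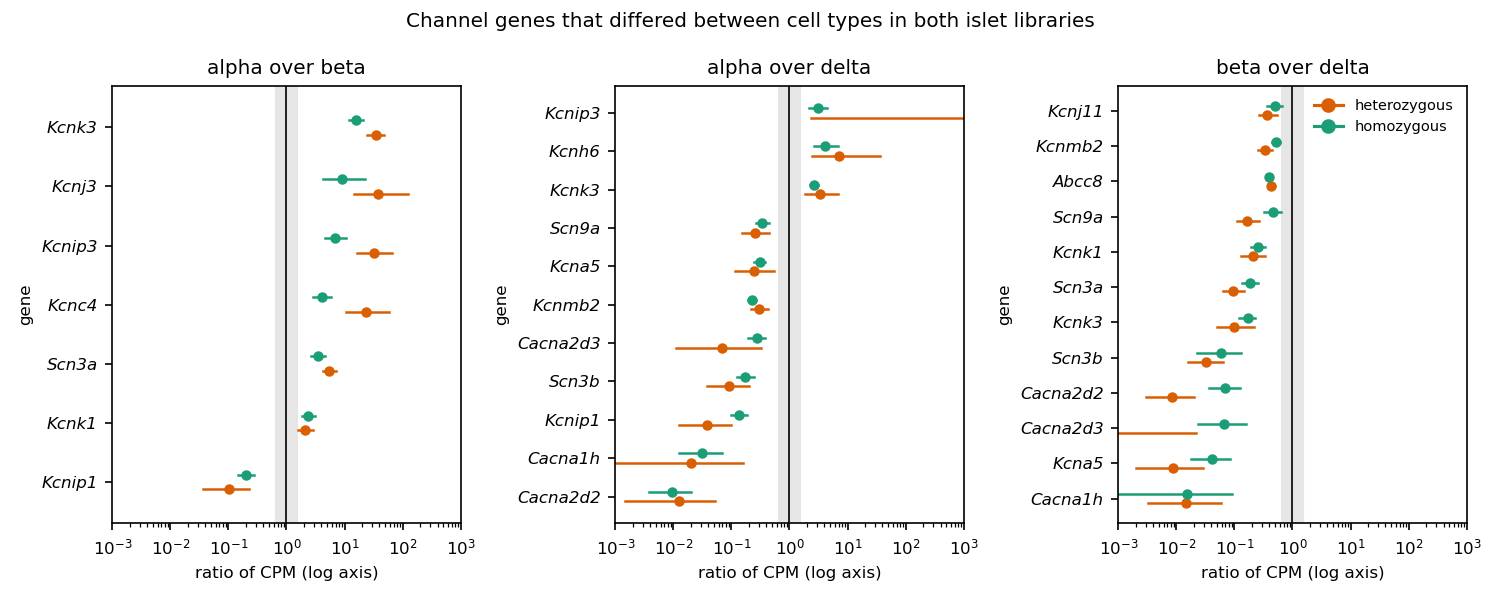
Ratios of CPM on a log axis, with exact 95% intervals, for the channel genes called between each pair of cell types, heterozygous library in orange and homozygous in green; the grey band spans 1.5-fold either way, and a line with no point has a count of 0 in 1 type. Kcnk3 lay at 34.3 and 15.6 for alpha over beta, and Cacna2d2 at 0.0127 and 0.00956 for alpha over delta.

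The other members that alpha, beta and delta cells share were less type-bound. Cacna1d (Cav1.3) was at 24.9 and 18.4 CPM in alpha cells, 20.6 and 33.3 CPM in beta cells and 29.0 and 18.0 CPM in delta cells, and the types overlapped. Cacna1a (Cav2.1), between 14.4 and 35.7 CPM, and Kcnma1 (the BK pore), between 17.0 and 39.2 CPM, had no call in any pair. The calcium channel beta subunit gene Cacnb3 reached 62.4 CPM in heterozygous delta cells and lay between 13.4 and 29.0 CPM in the other 5 pools. Cacna1b, Cacna1e, Cacna1g, Kcnd3 and Kcnq1 stayed below 10 CPM in all 6 pools, with a highest value of 6.69 CPM for Cacna1b. Kcnk16 (TALK-1), a two-pore channel of the islet, was at 10.6 and 6.68 CPM in alpha cells, 6.19 and 4.98 CPM in beta cells and 15.6 and 8.11 CPM in delta cells.

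PP cells were classified in the homozygous islets, with 151 cells. Against alpha cells of the same library, Kcnip4 was higher (10.4 against 3.57 CPM, 2.91-fold, 1.66 to 4.85), 1 of 24 members against 0.774% of all genes. In the other direction 3 of 24 members were lower, against 9.56%, among them Kcnj3 (3.27 against 11.3 CPM) and Kcnk3 (74.2 against 147 CPM). Neither of these passed the rule without the hormone transcripts.

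Cell types other than endocrine cells had channel genes of their own. In the heterozygous and homozygous libraries, stellate cells had Kcne4, which encodes an inhibitory Kv partner, at 144 and 121 CPM, Scn7a at 189 and 326 CPM and Kcnk2 (TREK-1) at 256 and 36.8 CPM. Endothelial cells had Kcnk5 (TASK-2) at 51.5 and 14.1 CPM and Kcnq1 at 35.1 and 21.2 CPM, 2 genes at 0.546 CPM or less in every endocrine pool. In heterozygous delta cells, the smallest of these pools, that means no UMI, which allows up to 6.69 CPM. Between the genotypes 2 of 14 members were higher in homozygous endothelial cells (2.11% of all genes), among them Kcna1, with 8 UMIs against 0, at least 4.02-fold higher. Kcnk5 and Abcc8 were lower (2 of 14, against 0.888%). The 86 homozygous cells with no type in the authors' classification had Kcnk13 at 69.5 CPM and Kcnj10 at 40.2 CPM. Macrophage markers summed to 27500 CPM in these cells, near the 24131 CPM of heterozygous macrophages.

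The second comparison asked how channel genes differed between homozygous and heterozygous islets within a cell type. It rests on 1 library of each genotype, so animal, library and genotype cannot be told apart. In alpha cells 29 members reached 10 CPM: 2 were higher in homozygous cells (2.48% of all genes) and 8 were lower (14.0% of all genes). Over the genes with UMIs in both libraries the median ratio was 0.651 for members and 0.771 for all genes. Without the hormone transcripts these medians were 0.776 and 0.919, and of 36 members 4 were higher (4.15% of all genes) and 5 lower (7.1%). Fewer transcripts per cell and a larger share of other transcripts cannot be told apart in these pooled values.

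Kcnk3 and Kcnc4 were the higher members. Kcnk3 went from 83.3 CPM in heterozygous to 147 CPM in homozygous alpha cells, 1.77-fold (1.56 to 2.01), and Kcnc4 from 10.9 to 23.6 CPM, 2.17-fold (1.54 to 3.15). Dpp10, which encodes a peptidase-like partner of Kv4 channels, showed the widest gap: 180 UMIs (56.0 CPM) in heterozygous and 71 UMIs (3.20 CPM) in homozygous alpha cells, 17.5-fold lower (13.2 to 23.3). Heterozygous alpha cells stood alone for Dpp10, since every other endocrine pool and tumor lay at 20.1 CPM or less. All 3 calls held on totals without the hormone transcripts, and that of Kcnc4 ended with doublets kept.

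Cacna1c, the Cav1.2 pore, was at 16.8 CPM in heterozygous and 6.23 CPM in homozygous alpha cells, 2.70-fold lower (1.93 to 3.72), and Kcnma1 at 39.2 and 17.0 CPM, 2.30-fold lower (1.87 to 2.83). These 2 also passed without the hormone transcripts. Kcnh2 was 2.21-fold lower (30.2 and 13.6 CPM), Kcnh6 2.12-fold (48.5 and 22.9 CPM), Kcnmb2 1.98-fold (37.6 and 19.0 CPM), Cacna2d1 1.85-fold (52.6 and 28.4 CPM) and Kcnj11 1.82-fold (55.0 and 30.2 CPM). None of these 5 passed without the hormone transcripts, where their ratios lay between 0.539 and 0.655. Summed beta cell markers stood at 55582 CPM in heterozygous and 11506 CPM in homozygous alpha cells, and their part in these differences was not tested.

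In beta cells 3 of 19 members were higher in homozygous cells (3.36% of all genes) and 1 was lower (3.31% of all genes). Abcc8 was lower, with 3409 UMIs (197 CPM) in heterozygous and 551 UMIs (98.1 CPM) in homozygous beta cells, 2.01-fold (1.84 to 2.21). In endothelial cells Abcc8 also stood lower in the homozygous library, at 10.6 against 55.0 CPM. Cacng2, which encodes the AMPA receptor and calcium channel partner stargazin, was higher (1.39 and 12.1 CPM, 8.71-fold, 5.40 to 14.5), as was Kcnq1ot1 (43.5 and 79.8 CPM, 1.83-fold, 1.63 to 2.06). Kcnq1ot1 is an imprinted noncoding RNA transcribed from within Kcnq1 (chr7:143213111-143296547, GRCm38), and no source used here says whether the counting used strand, so its reads and those of Kcnq1 cannot be told apart. Without the hormone transcripts 6 of 38 members were higher (3% of all genes) and 1 was lower (2.72%), and all 4 calls remained.

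In delta cells no member was higher in homozygous cells (0.534% of all genes) and 6 of 35 were lower (7.01% of all genes). Abcc8 was at 461 and 252 CPM, 1.83-fold lower (1.57 to 2.13), and Kcnj11 at 78.0 and 33.6 CPM, 2.32-fold lower (1.54 to 3.41). Dpp10 (20.1 and 4.92 CPM), Kcnb2 (Kv2.2; 15.6 and 1.74 CPM) and Kcnk2 (17.8 and 2.61 CPM) rested on 9, 7 and 8 UMIs in heterozygous cells, and Kcnj13 (Kir7.1) on 5 against 0, at least 12.8-fold lower. Of the 6, Kcnb2, Kcnk2 and Kcnj13 passed without the hormone transcripts as well, where 2 of 49 members were higher (1.19% of all genes) and 3 lower (2.34%). Summed beta cell markers stood at 162455 CPM in heterozygous and 64144 CPM in homozygous delta cells, and their part was not tested.

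**Figure D3:**
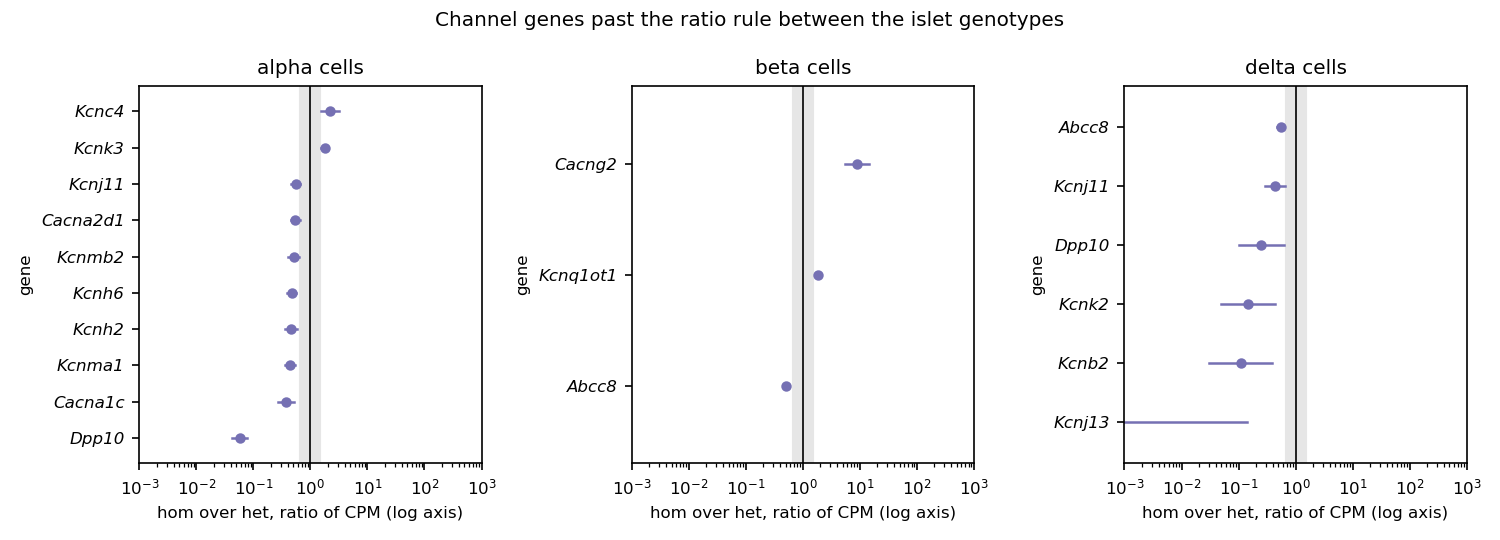
Homozygous over heterozygous ratios of CPM on a log axis, with exact 95% intervals, for channel genes past the rule in alpha, beta and delta cells; the grey band spans 1.5-fold either way. Dpp10 lay at 0.0572 in alpha cells, and Cacng2 at 8.71 in beta cells.

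Genes that work beside these channels were followed through a list of 77 partners, among them ion pumps, calcium stores, channel regulators, synaptotagmins and neurotransmitter receptors. In alpha cells 16 of 47 partners were lower in homozygous islets, against 14.0% of all genes, and none was higher, against 2.48%. Examples were the small GTPase Gem, which restrains calcium channels (45.7 and 6.54 CPM), the IP3 receptor Itpr1 (96.1 and 32.6 CPM), the scaffold Ank2 (39.2 and 13.1 CPM) and Trpm5, a sodium-carrying channel (11.8 and 0.361 CPM). In beta cells 4 of 43 were higher (3.36% of all genes), among them Fgf12, which binds sodium channels (10.4 and 27.8 CPM), and 2 were lower (3.31% of all genes): Trpm5 (140 and 33.5 CPM) and the glucose transporter Slc2a2 (171 and 68.5 CPM). Both are also genes whose alpha cell level was lower in the homozygous library. Summed beta cell markers, Slc2a2 among them, stood at 55582 CPM in heterozygous and 11506 CPM in homozygous alpha cells. Their part in the alpha cell differences of the partners was not tested. In delta cells 8 of 52 were lower (7.01% of all genes) and none was higher (0.534%), with Rimbp2, a link between calcium channels and the release site, at 125 and 38.0 CPM. These partner counts were made on full totals only. Without the hormone transcripts the share of all genes lower in homozygous cells was 7.1% in alpha and 2.34% in delta cells.

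The third comparison set the tumors against islet alpha cells, with 3 tumor libraries against the alpha cells of 2 islet libraries that differ in genotype. It was tested with limma across 10127 genes on log2(CPM + 1), a scale that understates the change of low genes, and 32 of the 140 members passed the filter of 5 CPM in 2 libraries. 1 member was higher at an adjusted p of 0.05 (2.14% of all genes) and none was lower (0.109% of all genes). At an unadjusted p under 0.05 in limma, 6 members were higher and 2 lower, against 20.4% and 2.20% of all genes. DESeq2 called 2 lower and edgeR none. The shares of all genes that DESeq2 and edgeR called are not given here, so these counts say nothing about channel genes as a group. The limma call held in 7 of 18 alternatives and ended when any 1 tumor library or the heterozygous library was left out. The tumor table gives each tumor library a source number of its own, but the labels do not say that these are separate animals, so the spread between them may be partly technical.

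For 6 members all 3 tumors lay above both islet libraries (35.6% of all genes did), and for 2 members all lay below (4.91%). Kcnj3 was at 10.9 and 11.3 CPM in islet alpha cells and at 22.8, 23.7 and 23.6 CPM in the tumors, a log2 change of 1.01 ± 0.22 (limma adjusted p = 0.0574). Cacna1a was at 17.7 and 14.4 CPM and then 29.2, 30.3 and 35.2 CPM (log2 0.93 ± 0.23, limma adjusted p = 0.0797), and Kcnk1 at 20.5 and 28.9 CPM and then 38.3, 42.3 and 39.0 CPM. Kcnmb1, the smooth muscle beta subunit of BK, had no UMI in heterozygous alpha cells, which allows up to 0.933 CPM, 3.93 CPM in homozygous ones, and 14.6, 6.15 and 18.3 CPM in the tumors (limma adjusted p = 0.0958). Scn2a1 was at 0.933 and 3.97 CPM and then 9.32, 5.05 and 5.79 CPM. None of these 5 named genes passed the test.

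Kcnmb2 and Kcna5 lay lower in every tumor. Kcnmb2 was at 37.6 and 19.0 CPM in islet alpha cells and 14.7, 12.3 and 5.10 CPM in the tumors, a log2 change of -1.36 ± 0.45 (limma adjusted p = 0.139). Kcna5 was at 6.53 and 10.5 CPM and then 1.69, 3.01 and 4.87 CPM, a log2 change of -1.22 ± 0.44 (limma adjusted p = 0.157). DESeq2 called both, with adjusted p of 0.0228 and 0.0328, and their adjusted p ranged from 0.0228 to 0.347 over the 17 alternatives that tested Kcnmb2 and from 0.0328 to 0.280 over the 15 that tested Kcna5. The median log2 change was 0.18 over the 32 members and 0.28 over all genes tested, and with TMM scaling it was -0.02 and 0.08.

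Members that differed between the islet genotypes did not all sit on the homozygous side in tumors. Dpp10 was at 2.08, 5.44 and 9.19 CPM in tumors A, B and C, near the homozygous 3.20 CPM and far from the heterozygous 56.0 CPM. Kcnk3 was at 217, 160 and 95.7 CPM, a range that spans the homozygous 147 CPM and stays above the heterozygous 83.3 CPM. Kcnma1 was at 41.8, 39.0 and 38.4 CPM, beside the heterozygous 39.2 CPM and above the homozygous 17.0 CPM. Kcnj11 (40.4, 38.8 and 21.8 CPM) and Abcc8 (275, 281 and 182 CPM) were lower in tumor C than in A and B, with Kcnj11 below the heterozygous 55.0 CPM in every tumor and on both sides of the homozygous 30.2 CPM, and Abcc8 above the homozygous 164 CPM in every tumor and on both sides of the heterozygous 252 CPM. Kcnc4 was at 25.6, 17.8 and 3.95 CPM, and Kcnip3 at 49.5, 48.0 and 19.1 CPM, again lower in tumor C.

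**Figure D4:**
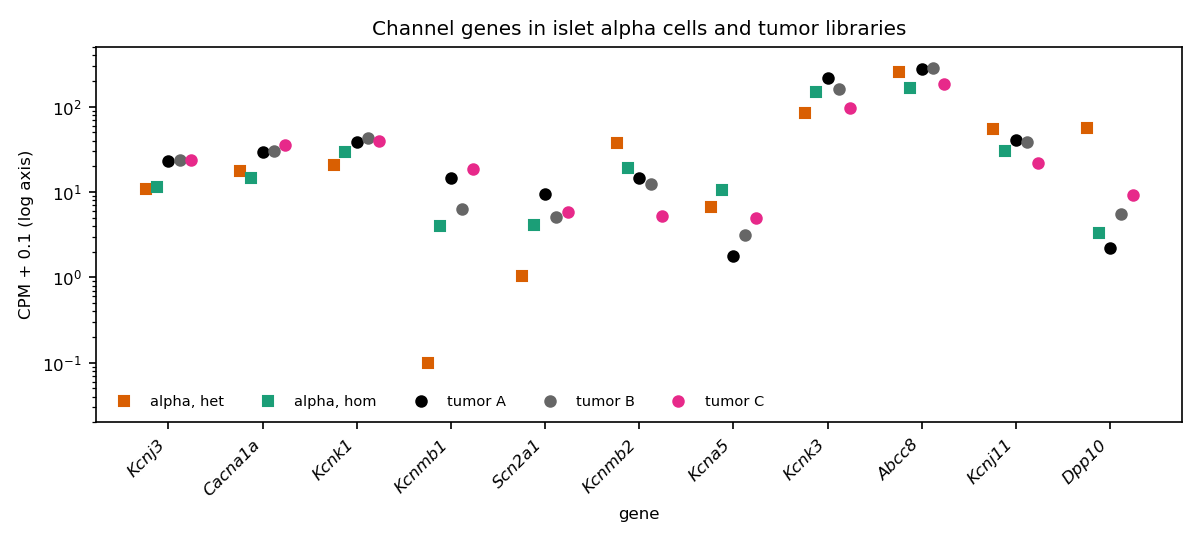
CPM + 0.1 on a log axis for 11 channel genes in alpha cells of the 2 islet libraries (squares) and in the 3 tumor libraries (circles). Kcnj3 lay at 10.9 and 11.3 CPM in islet alpha cells and between 22.8 and 23.7 CPM in the tumors, and Dpp10 was high in heterozygous alpha cells alone.

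Of the partner genes 51 were tested: 2 were higher in tumors (2.14% of all genes) and none was lower (0.109%) in limma. Syt4, a synaptotagmin of secretory vesicles, was at 54.7 and 46.6 CPM in islet alpha cells and 115, 125 and 131 CPM in the tumors (log2 1.27 ± 0.23, limma adjusted p = 0.0355). Dpp6, the Kv4 partner related to Dpp10, was at 8.09 and 7.63 CPM and then 22.9, 75.4 and 42.3 CPM (log2 2.28 ± 0.44, limma adjusted p = 0.0430). Both calls ended with TMM scaling (limma adjusted p = 0.0933 for Syt4 and 0.0991 for Dpp6). They also ended without the hormone transcripts (limma adjusted p = 0.0879 and 0.102) and in edgeR (adjusted p = 0.113 and 0.121), while DESeq2 called both. Ank2 was at 39.2 and 13.1 CPM and then 1.19, 0.310 and 5.01 CPM and did not pass (limma adjusted p = 0.0581).

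Within libraries, channel genes also differed between the authors' graph-based clusters, for which no test was made, since clusters were built from the same cells. Homozygous alpha cells fell mostly into cluster 2.1 (947 cells) and cluster 2.2 (563 cells). Kcnc4 was at 29.3 CPM in cluster 2.1 and 13.7 CPM in cluster 2.2, and 2 of 24 members in all were higher in cluster 2.1 (4.30% of all genes) and none was lower (0.399%). The Kcnc4 call ended without the hormone transcripts. Kcnk3, at 155 and 134 CPM, was high in both, and Dpp10, at 3.52 and 2.68 CPM, was low in both. The 2 main clusters of heterozygous beta cells, 1.1 (496 cells) and 1.3 (189 cells), differed in no member of 18 that reached 10 CPM (0% of all genes were higher in cluster 1.1 and 0.117% lower). In homozygous beta cells, cluster 2.7 (27 cells) had more Scn3a (31.7 against 8.67 CPM), Kcnip3 (31.7 against 3.39 CPM) and Kcnab3 (14.1 against 2.07 CPM) than cluster 2.4 (432 cells), from 9, 9 and 4 UMIs. Thus 3 of 24 members were lower in cluster 2.4 (5.60% of all genes) and none was higher (0.203%). Without the hormone transcripts the calls of Scn3a and Kcnab3 ended.

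Tumor C fell into cluster 2 (697 cells) and cluster 4 (385 cells), while nearly all of tumors A and B lay in clusters 3 and 1. Kcnc2, which encodes the fast delayed rectifier Kv3.2, had 620 UMIs in cluster 2 (45.8 CPM, 42.3 to 49.6) and 20 in cluster 4 (2.43 CPM). It was at 0.796 CPM in cluster 3 of tumor A and 0.0443 CPM in cluster 1 of tumor B, and at 0.541 CPM or less in alpha and beta cells, so cluster 2 stood alone among the alpha and tumor cells. Delta cells had 15.6 and 9.28 CPM. Kcnc2 lies at chr10:112269898-112466304 (GRCm38), 5.22 Mb from Mdm2, which was at 1586 CPM in tumor C and 49.7 and 44.9 CPM in tumors A and B. The part of Mdm2's neighbourhood in the Kcnc2 level was not tested.

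Kcnq1ot1 ran the other way. It was at 5.99 CPM in cluster 2 (4.75 to 7.44) and 145 CPM in cluster 4 (137 to 154), against 182 and 194 CPM in the main clusters of tumors A and B and 110 and 70.2 CPM in islet alpha cells. Cluster 2 was thus below every endocrine pool for Kcnq1ot1, and the level of tumor C as a whole, 58.7 CPM, mixed its 2 clusters. Abcc8 (146 and 241 CPM) and Kcnk12 (6.06 and 16.0 CPM) were also lower in cluster 2 than in cluster 4, while Kcnj3 (23.7 and 23.6 CPM) was level. In all, 1 of 26 members was higher in cluster 2 (6.35% of all genes) and 3 were lower (3.53% of all genes).

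**Figure D5:**
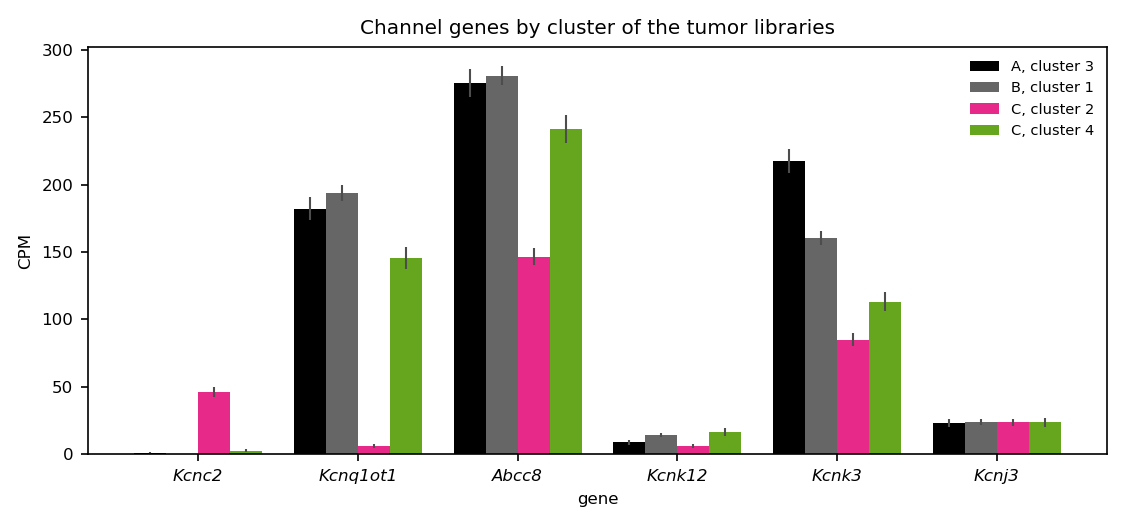
CPM of 6 channel genes in the main clusters of the tumor libraries, with exact 95% Poisson intervals as bars. Kcnc2 reached 45.8 CPM in cluster 2 of tumor C and 2.43 CPM or less in the other 3 clusters, and Kcnq1ot1 was at 5.99 CPM there and at 145 CPM or more in the others.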

How the data were processed

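The members, the partner list and the rules were chosen with earlier results of these data known. The deposited values are normalized UMIs, a signal, and the file headers name the cell totals (all UMIs in islets, exonic UMIs in tumors). The scale of a cell, 9936 in islets and 12219 in tumors, was worked out here. It is the median over cells of the smallest value above 0 times the cell total. Multiplying back with the deposited cell totals, which are counts, gave whole UMIs for 100% of values within 0.01. The submitters' processing notes name CASAVA 1.8, bcl2fastq 2.17, GSNAP and GRCm38.

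No cell fell under 1000 UMIs or 500 genes or exceeded 20% mitochondrial UMIs. Scrublet (scanpy 1.11.5, expected rate 0.06) removed 8 heterozygous and 1 homozygous islet doublets and 18, 9 and 15 from tumors A, B and C. Recovered UMIs were pooled by the authors' cell type and library as CPM. Tumors were tested with limma 3.58.1 (R 4.3.3, trended variance, pseudocount of 1 CPM, Benjamini-Hochberg over all genes tested). edgeR 4.0.16 and DESeq2 1.42.0 on recovered UMIs were alternatives. Ratios have exact conditional binomial and levels exact Poisson intervals (95%), and a count of 0 is given a limit of 3 counts. Median UMIs per cell ranged from 10961 to 26092 between libraries. The limma and ratio calls were checked on simulated counts. Those for the ratio rule held counting error only, so that check does not cover differences between animals or libraries. Named genes were members past a call, members of 50 CPM or more in an alpha, beta, delta or tumor pool, and a fixed set of excitability genes; partners were limited to 6 each way. All 140 members matched RefSeq, and 103 had promoter windows. Some members are counted but not reported here by name.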

Additional observations from a re-analysis of the deposited data

Results flagged for a closer look

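Genotype differences ran in opposite directions in alpha and beta cells for 3 members, with intervals on either side of 1 on both totals. The difference between the cell types was not tested. Only members were searched in this way, so the share of all genes that would meet the same rule is not known. Cacna2d1 stood at 0.540 (95% interval 0.455 to 0.644) homozygous over heterozygous in alpha cells and at 1.38 (1.21 to 1.56) in beta cells. Kcnq1ot1 stood at 0.638 (0.568 to 0.718) in alpha cells and at 1.83 (1.63 to 2.06) in beta cells. Kcnh8, which was below 10 CPM in these 4 pools, stood at 0.0967 (0.0425 to 0.212) in alpha cells and at 2.19 (1.34 to 3.52) in beta cells. Each value compares 1 library of each genotype, and the intervals cover counting error only.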

How the results depend on the processing

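The tumor comparison called 1 channel gene, and the count stayed at 1 with pseudocounts of 0.5 or 5 CPM, filters of 2 or 20 CPM, doublets kept, tumor cells over 10% insulin UMIs left out and without the homozygous library. It was 0 with no filter, with the mean over cells by the authors' totals, with TMM scaling, with totals without 8 hormone transcripts, with edgeR, and with cluster 2.1 as the homozygous alpha cells, a setting chosen after seeing the data. DESeq2 called 2, Kcnmb2 and Kcna5, given here without its share of all genes. Leaving out 1 library at a time gave between 0 and 1. No single-gene log2 change of the 32 members reversed a call in 558 alternative values, while 11 lost and 2 gained one. Since 1 member was called at first, nearly all of these values had no call to reverse. Sign changes of uncalled members were not counted. They did occur, as with TMM scaling for Cacna2d1 (log2 0.08 and then -0.12) and Kcnh6 (0.15 and then -0.05). No paired analysis was made, because no label used here ties an islet library and a tumor library to a common source.

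Between genotypes, 10 alpha calls became 1 with a bound of 2-fold. The 4 beta calls became 1 with that bound and 7 without the hormone transcripts. The 6 delta calls became 3 with that bound and 3 with a level of 20 CPM. Between alpha and beta cells 7 calls became 4 with a level of 20 CPM and 11 without the hormone transcripts. The number tested and the share of all genes called also change with the bound and the level. They are not given here for those settings, so these counts show how the rule acts and are no result about channel genes. For Kcnk3, Kcnc4 and Dpp10 in alpha cells the direction held on both totals. The heterozygous delta pool of 62 cells gives the widest intervals, and 1 UMI there is worth more than in any other of the 6 alpha, beta and delta pools.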
